A study of Mus musculus with 8 samples.

Results

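Sphingosine 1-phosphate (S1P) and lysophosphatidic acid (LPA) are small signalling lipids, and 10 genes of their pathways were compared between sorted cells of the embryonic cortex and lung. They were the S1P receptor genes S1pr1, S1pr2, S1pr3 and S1pr4, the sphingosine kinase genes Sphk1 and Sphk2, the exporter gene Spns2, the lipid phosphatase gene Plpp3, and the LPA receptor genes Lpar1 and Lpar6. Members were taken from probe sets annotated to exactly 1 of these genes. Where a gene had several, its brightest probe set by the mean of all 8 arrays was used. The probe sets were 1423571_at for S1pr1, 1428176_at for S1pr2, 1438658_a_at for S1pr3, 1451024_at for S1pr4, 1451596_a_at for Sphk1, 1417431_a_at for Sphk2, 1451601_a_at for Spns2, 1429514_at for Plpp3, 1417143_at for Lpar1 and 1428615_at for Lpar6. All 10 members were measured, out of 18193 genes tested, with no filter on low values. The cells were GFP-positive cells sorted from cortex or lungs of homozygous Tie2-GFP mouse embryos at E13.5, with no treatment and no other allele named. Both tissues carried the same transgene, a green fluorescent protein under the control of Tie2, now Tek, an angiopoietin receptor of endothelial cells. The Tie2 promoter is also known to be active in some blood cells. Cortex had been cleared of meninges and choroid plexus, and each of the 4 cortex and 4 lung arrays held pooled cells of a litter of 10 to 13 embryos. The samples are called by the numbers in their titles, 18, 19, 22 and 72 in both tissues.

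Sphingosine kinases make S1P inside cells, and Spns2 carries it out of endothelial cells. At the cell surface S1P acts on G protein-coupled receptors: S1pr1 signals through Gi to Rac and tightens endothelial junctions, S1pr2 signals mainly through G12/13, and S1pr3 couples to several G proteins. LPA receptors work in the same way, and Plpp3, an ectophosphatase, removes the phosphate from LPA and S1P and so ends their signals. In mice S1pr1 and Spns2 are known for their work in vessel maturation and lymphocyte traffic, and Lpar1 is known from the progenitor zone of the developing cortex.

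The data were deposited log2 values of an Affymetrix expression array, on which a difference of 1 is a 2-fold difference. Values of different genes come from different probes, so no level is set against that of another gene. A gene was called where limma's p, adjusted by Benjamini-Hochberg over all 18193 genes, was under 0.05, and each difference is cortex minus lung. Array medians over all probe sets lay between 6.59 and 6.72. Over the probe set chosen per gene, correlations between arrays were 0.941 to 0.989 within a tissue and 0.874 to 0.932 between tissues. In the same values principal component 1 took up 64.1% of the variance and separated the tissues. The description field of the samples numbered 18 and 19 names the other tissue, and tissue was taken from title, source name and tissue label. The endothelial label was checked on 26 pan-endothelial genes, whose mean was 9.21, 11.08, 10.92 and 9.63 in cortex arrays 18, 19, 22 and 72, against 11.19, 11.68, 11.62 and 11.54 in lung arrays 18, 19, 22 and 72. Of these genes, 8 were called lower in cortex, 0 higher and 18 not called, with 18 lower and 0 higher at an unadjusted p under 0.05 (limma). All 20 neural genes were called higher in cortex, with list means of 10.90 to 11.46 in cortex arrays and 6.12 to 6.46 in lung arrays. Genes of microglia and other white blood cells had list means of 6.90 to 9.20 in cortex and 6.06 to 7.25 in lung. Mesenchyme genes had 6.59 to 6.93 in cortex and 7.25 to 9.57 in lung. In such bulk samples fewer cells of a type and less RNA per cell cannot be told apart.

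Lpar1 was the member that was called higher in cortex, and S1pr2, S1pr4 and Lpar6 were called lower there. The other members, S1pr1, S1pr3, Sphk1, Sphk2, Spns2 and Plpp3, were not called. Thus 1 of the 10 members was called higher in cortex and 3 lower, beside 10.4% of all genes called higher, 7.71% lower and 18.1% in either direction. On the chosen probe sets all 4 called members differed by at least 2-fold, as did 12.8% of all genes with a call, 7.89% higher and 4.95% lower. The arrays of cortex and lung did not overlap for the same 4 members, with Lpar1 above and the other 3 below. Among all genes cortex lay wholly above lung for 12.5%, wholly below for 12.0% and in either way for 24.5%. The mean was lower in cortex for 8 of the 10 members, and their median difference was -0.67, beside -0.09 over all genes. The members were chosen with earlier results of these data known, so these counts and medians are a description only.

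**Figure D1:**
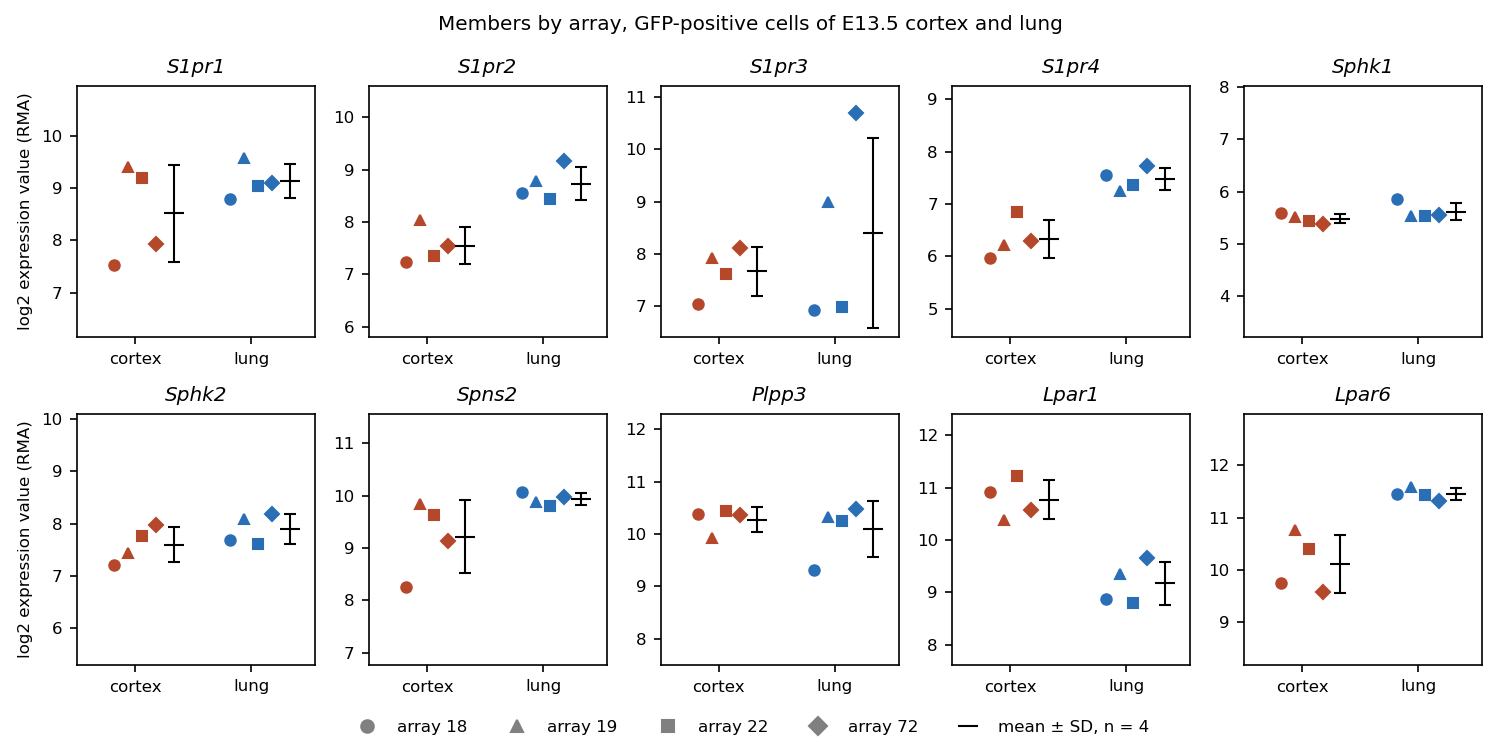
Each point is the log2 value of a member gene in an array, with cortex arrays left of lung arrays and the bars at the mean ± SD of 4 arrays. Cortex and lung points do not overlap for Lpar1, S1pr2, S1pr4 and Lpar6, and the lung points of S1pr3 run from 6.92 to 10.70.

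The promoters of the 4 called members are shown because their difference between tissues is the finding here. RefSeq's table held an entry for 9 of the 10 members; S1pr1 is only named. Each window spans 250 bases before to 50 bases after an annotated gene start on GRCm38.p6, read 5′ to 3′ on the gene's strand. They are chr9:20976744-20977043 (minus strand) for S1pr2, chr10:81500088-81500387 (minus) for S1pr4, chr4:58553442-58553741 (minus) for Lpar1, where it is the first of 3 listed windows, and chr14:73237641-73237940 (plus) for Lpar6. Capitals mark a match to CCGGAA, a core of ETS factors, or CCACCC, a core of KLF factors, searched on both strands with GTAAACA, a core of FOX factors.
S1pr2: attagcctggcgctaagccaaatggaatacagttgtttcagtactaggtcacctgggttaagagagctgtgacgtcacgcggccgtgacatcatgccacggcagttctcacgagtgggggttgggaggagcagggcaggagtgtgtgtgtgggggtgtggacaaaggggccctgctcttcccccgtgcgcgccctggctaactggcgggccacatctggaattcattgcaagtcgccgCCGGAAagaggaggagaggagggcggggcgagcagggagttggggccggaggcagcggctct
S1pr4: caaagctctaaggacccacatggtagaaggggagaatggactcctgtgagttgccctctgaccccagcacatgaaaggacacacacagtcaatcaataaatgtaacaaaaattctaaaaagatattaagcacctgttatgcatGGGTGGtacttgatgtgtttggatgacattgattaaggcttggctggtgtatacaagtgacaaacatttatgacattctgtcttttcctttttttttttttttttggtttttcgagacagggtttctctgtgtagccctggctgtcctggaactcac
Lpar1: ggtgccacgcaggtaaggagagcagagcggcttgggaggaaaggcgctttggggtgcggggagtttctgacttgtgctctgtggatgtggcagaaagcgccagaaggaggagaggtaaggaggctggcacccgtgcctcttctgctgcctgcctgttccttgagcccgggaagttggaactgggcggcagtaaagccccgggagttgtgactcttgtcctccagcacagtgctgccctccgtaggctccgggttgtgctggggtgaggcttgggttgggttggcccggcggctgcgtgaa
Lpar6: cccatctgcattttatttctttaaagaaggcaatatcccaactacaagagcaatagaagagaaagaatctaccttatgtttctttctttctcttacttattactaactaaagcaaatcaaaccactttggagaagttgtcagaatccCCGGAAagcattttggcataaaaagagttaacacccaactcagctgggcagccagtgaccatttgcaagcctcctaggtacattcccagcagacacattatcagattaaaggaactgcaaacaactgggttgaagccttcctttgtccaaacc

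S1pr2 and Lpar6 each held 1 CCGGAA, and S1pr4 held 1 CCACCC, on the reverse strand. The Lpar1 window held no match of these motifs, and GTAAACA was found in none of the 4 windows. Of 32851 promoter windows of the same length, 14.9% held CCGGAA, 31.5% CCACCC and 3.65% GTAAACA. The letters of a match do not show that a factor binds there.

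Among the genes that make and export S1P, no call was made. Sphk1, a kinase that makes S1P, had values of 5.59, 5.52, 5.45 and 5.38 in cortex arrays 18, 19, 22 and 72, against 5.87, 5.53, 5.54 and 5.55 in lung arrays 18, 19, 22 and 72. Cortex 18 lay above 3 of the lung arrays, the other cortex arrays lay below every lung array, and lung 18 stood above the rest. Means were 5.49 ± 0.09 in cortex and 5.62 ± 0.16 in lung (SD, n = 4 each), a difference of -0.14 with a 95% interval of -0.44 to 0.17 and an adjusted p of 0.516 (limma). The interval excludes a 2-fold difference between the values of this probe set. The probe set was dim, at 5.38 to 5.87, and RMA compresses differences of dim probes. The interval therefore does not bound the difference of the transcript. The other probe set of Sphk1 differed by 0.06.

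Sphk2, the kinase isoform found also in the nucleus, had values of 7.22, 7.44, 7.76 and 7.98 in cortex, against 7.69, 8.10, 7.62 and 8.19 in lung, in the same order of arrays. The arrays overlapped, and the difference was -0.30 (95% interval -0.78 to 0.19, limma adjusted p = 0.379). A second probe set had the opposite sign, at 7.41 ± 0.49 in cortex and 7.00 ± 0.25 in lung (SD, n = 4 each), and was not called either, with an adjusted p of 0.362 over all probe sets (limma).

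Spns2, the exporter, had values of 8.26, 9.84, 9.63 and 9.14 in cortex, against 10.07, 9.88, 9.80 and 9.97 in lung. The lung arrays lay within a narrow range, while the cortex arrays were spread, 18 lowest and 19 highest, and only 19 lay within the lung range. The mean was 9.22 ± 0.70 in cortex and 9.93 ± 0.12 in lung (SD, n = 4 each). The difference of -0.71 was not called, with a 95% interval of -1.43 to 0.01 and an adjusted p of 0.165 (limma).

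Among the S1P receptors, the G12/13-coupled S1pr2 fell in cortex. Its values were 7.24, 8.04, 7.35 and 7.55 in cortex arrays 18, 19, 22 and 72, against 8.55, 8.79, 8.43 and 9.16 in lung arrays 18, 19, 22 and 72. Every lung array lay above every cortex array. The mean was 7.54 ± 0.36 in cortex and 8.73 ± 0.32 in lung (SD, n = 4 each), so that the level was 2.28-fold lower in cortex. The difference was -1.19 (SE 0.23, limma adjusted p = 0.00757). The second S1pr2 probe set was lower in cortex too, at 5.45 ± 0.15 in cortex and 5.93 ± 0.19 in lung, again without overlap. It was not called (difference -0.48, adjusted p = 0.0757 over all probe sets, limma). By the mean of both probe sets the difference was -0.83 (limma adjusted p = 0.00389), still called but under 2-fold.

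S1pr4, a receptor known mainly from lymphoid and other blood cells, also fell in cortex. Its values were 5.98, 6.21, 6.84 and 6.30 in cortex, against 7.56, 7.26, 7.36 and 7.73 in lung, with no overlap. The mean was 6.33 ± 0.37 in cortex and 7.48 ± 0.21 in lung (SD, n = 4 each), and the level was 2.21-fold lower in cortex (difference -1.14, SE 0.21, limma adjusted p = 0.0058). Of the 10 listed genes of microglia and other white blood cells, 3 were called higher in cortex and 0 lower, with a median difference of 1.63. The part of such cells in the S1pr4 value was not tested.

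S1pr1, the main S1P receptor of endothelial cells, was not called. Its values were 7.52, 9.40, 9.20 and 7.94 in cortex, against 8.80, 9.58, 9.05 and 9.10 in lung. Cortex arrays 19 and 22 lay within the lung range, and cortex arrays 18 and 72 lay below it. The mean was 8.51 ± 0.93 in cortex and 9.13 ± 0.33 in lung (SD, n = 4 each), with a difference of -0.62 (95% interval -1.59 to 0.35, limma adjusted p = 0.358). This interval holds both no difference and a 2-fold lower level in cortex.

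The order of the cortex arrays was the same for S1pr1, Spns2 and the mean of the pan-endothelial list: 19 highest, then 22, 72 and 18. Lpar6 had 19 and 22 above 18 and 72 in cortex as well. S1pr2, S1pr3, S1pr4, Sphk1, Sphk2, Plpp3 and Lpar1 had neither pattern, with array 22 highest in cortex for S1pr4 and Lpar1. With the pan-endothelial mean of each array as a covariate, the difference was 0.69 for S1pr1 and 0.13 for Spns2, with no call for either. With it S1pr2 had -0.88 (SE 0.32, limma adjusted p = 0.189) and S1pr4 -0.88 (SE 0.30, limma adjusted p = 0.156), so that the calls of both were lost. The pan-endothelial mean was 9.21 to 11.08 in cortex arrays and 11.19 to 11.68 in lung arrays, so it cannot be fully told apart from tissue. The part of endothelial content in these values was not tested.

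**Figure D2:**
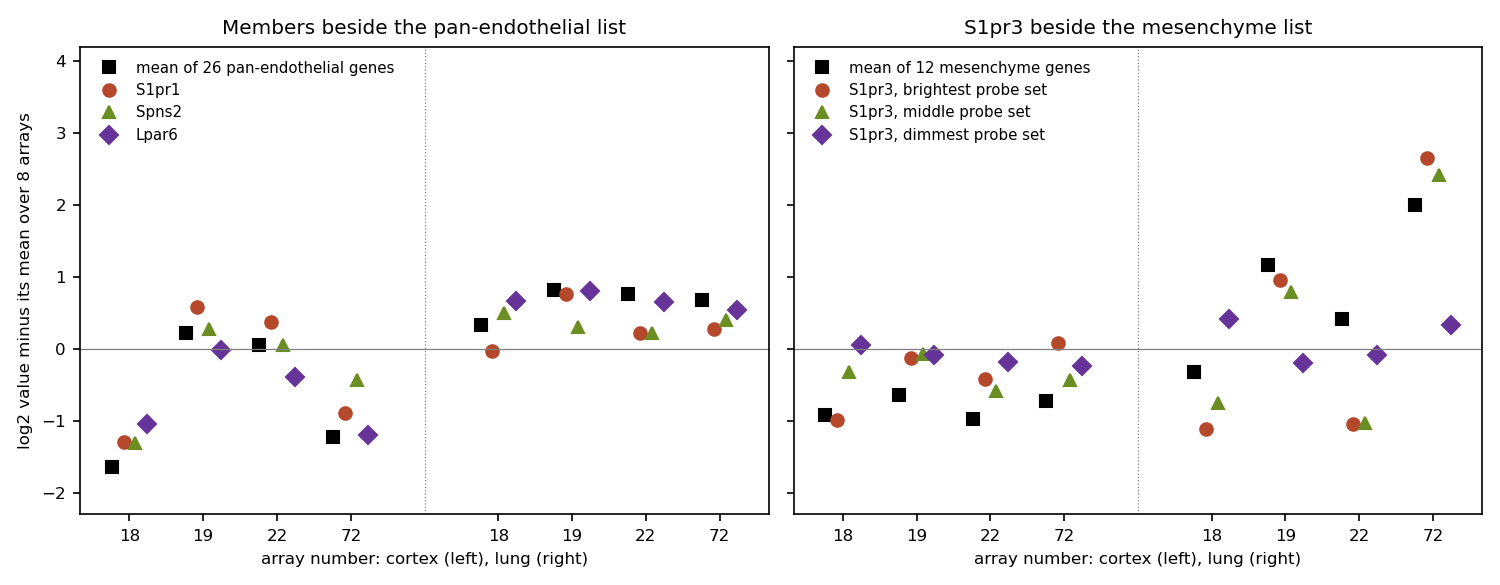
Points are log2 values minus their own mean over the 8 arrays, cortex arrays left and lung arrays right. On the left, S1pr1, Spns2 and Lpar6 stand beside the mean of 26 pan-endothelial genes, with cortex 18 and 72 the lowest of that mean; on the right, the 3 probe sets of S1pr3 stand beside the mean of 12 mesenchyme genes, with lung 72 highest for that mean and for the brightest and middle probe sets.

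S1pr3, which couples to several G proteins, varied more between lung arrays than between tissues. Its values were 7.04, 7.92, 7.62 and 8.12 in cortex, against 6.92, 9.00, 7.00 and 10.70 in lung. Lung arrays 19 and 72 lay above every cortex array, and lung arrays 18 and 22 lay below every cortex array. Means were 7.68 ± 0.47 in cortex and 8.41 ± 1.81 in lung (SD, n = 4 each), with a difference of -0.73 (95% interval -2.53 to 1.07, limma adjusted p = 0.558). Without lung 72 the difference was 0.036. A second probe set also had lung 72 highest and lung 19 next among the lung arrays, with 6.70, 8.24, 6.42 and 9.86 in lung arrays 18, 19, 22 and 72. The third, a dim probe set, had 4.96, 4.36, 4.46 and 4.89 in the same order, with lung 18 highest and lung 19 lowest.

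The mesenchyme list had its highest means in the same lung arrays, at 7.25, 8.74, 7.99 and 9.57 in lung 18, 19, 22 and 72. Of its 12 genes, 7 were called lower in cortex, 0 higher and 5 not called. The pericyte and smooth muscle list had means of 6.88, 7.76, 7.50 and 8.38 in these lung arrays. The BioB spike-in probe sets, added in known amounts at hybridisation, ran the opposite way, at 9.29, 8.18, 9.08 and 7.67. The part of mesenchyme, pericyte and smooth muscle cells in the S1pr3 values was not tested. With the BioB level as a covariate, chosen after seeing the data, the difference of S1pr3 was -1.59 (limma adjusted p = 0.0187) and that of Sphk2 -0.49 (limma adjusted p = 0.0451). Because the covariate was chosen from the same data, these calls are no independent support for a difference. Under that setting 2055 of all genes were called lower in cortex, beside 1403 without it.

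Plpp3, the phosphatase that ends LPA and S1P signals, was not called. Its values were 10.39, 9.92, 10.43 and 10.37 in cortex, against 9.31, 10.33, 10.26 and 10.49 in lung. All arrays but cortex 19 and lung 18 lay within 10.26 to 10.49. The mean was 10.28 ± 0.24 in cortex and 10.10 ± 0.53 in lung (SD, n = 4 each), a difference of 0.18 (95% interval -0.43 to 0.79, limma adjusted p = 0.670). Without lung 18 the difference was -0.079, and a second probe set differed by -0.09. Lung 18 also had the highest 3′ minus 5′ difference of the Gapdh control probe sets, 1.54, beside 1.02 to 1.21 in cortex arrays and 0.91 to 1.14 in the other lung arrays; its part in the Plpp3 value was not tested.

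Among the LPA receptors, Lpar1 rose in cortex. Its values were 10.92, 10.37, 11.22 and 10.57 in cortex arrays 18, 19, 22 and 72, against 8.88, 9.34, 8.80 and 9.66 in lung arrays 18, 19, 22 and 72. Every cortex array lay above every lung array. The mean was 10.77 ± 0.38 in cortex and 9.17 ± 0.41 in lung (SD, n = 4 each), so that the level was 3.04-fold higher in cortex. The difference was 1.60 (SE 0.26, limma adjusted p = 0.00296).

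The other Lpar1 probe sets were higher in cortex by less. The second stood at 9.15 ± 0.76 in cortex and 8.44 ± 0.42 in lung (SD, n = 4 each), a difference of 0.71 that was not called (adjusted p = 0.286 over all probe sets, limma). The third, a dim probe set, stood at 5.72 in cortex and 5.62 in lung. By the mean of the 3 probe sets the difference was 0.80 (limma adjusted p = 0.0313), still called but under 2-fold. Beside Lpar1, the neural list was 5.25 higher in cortex at its median, with all 20 genes called, and its part in the Lpar1 value was not tested.

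Lpar6, an LPA receptor known in humans from inherited hair loss and coupled to G12/13, fell in cortex. Its values were 9.75, 10.76, 10.39 and 9.58 in cortex, against 11.45, 11.59, 11.44 and 11.33 in lung. The lung arrays lay within a narrow range, and every cortex array lay below it. The mean was 10.12 ± 0.55 in cortex and 11.45 ± 0.11 in lung (SD, n = 4 each), and the level was 2.51-fold lower in cortex (difference -1.33, SE 0.26, limma adjusted p = 0.00832). With the pan-endothelial mean as a covariate Lpar6 was -0.64 (SE 0.23, limma adjusted p = 0.179), and its call was lost. The call of Lpar1 was lost as well, at 1.63 (SE 0.40, limma adjusted p = 0.059), beside 1.60 (SE 0.26) without the covariate. The SE rose with the covariate for S1pr2 and S1pr4 as well, to 0.32 and 0.30. The cause of the lost calls was not tested. With arrays shifted to the same pan-endothelial mean, the calls of S1pr2, S1pr4 and Lpar6 were lost too. Lpar1 stayed called at 2.90 and Plpp3 became called at 1.48 (limma adjusted p = 0.0347). This shift moves the median of all genes to 1.21. Under it limma gave every gene the same SE, 0.58, so a call there reflects only the size of the difference.

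**Figure D3:**
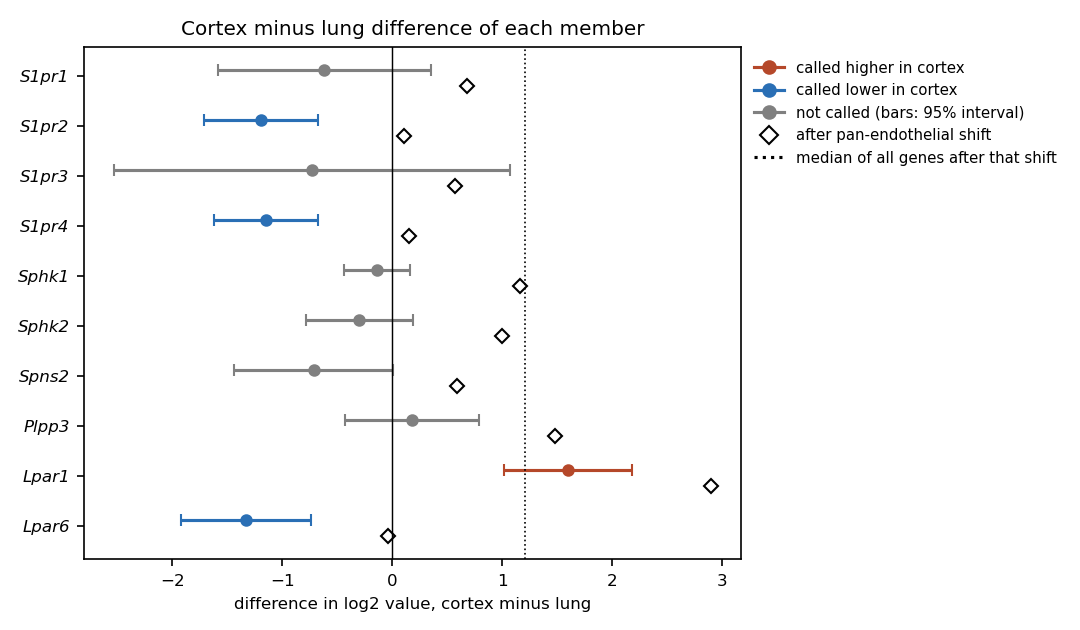
Round points are the differences of the 10 members, cortex minus lung on the log2 scale, with 95% intervals, red where called higher in cortex, blue where called lower and grey where not called; diamonds are the differences after the shift to the same pan-endothelial mean, and the dotted line is the median of all genes after it, 1.21. The intervals of Lpar1 (1.02 to 2.19), S1pr2, S1pr4 and Lpar6 leave out 0, as none of the other 6 does.

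Beyond the members, 67 genes of 7 pathway lists were considered, 61 of which were measured; Lpar5, Gpr55, Enpp2, Cers1, Rock2 and Grk2 are not analysed here. Of the 61, 6 were called higher in cortex, 10 lower and 45 not called, beside 10.4% of all genes higher and 7.71% lower. The median difference was -0.10, beside -0.09 over all genes. Leaving out a single array left 2 to 5 of them called higher and 6 to 9 called lower. These lists too were chosen with earlier results of these data known.

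Of the 7 other receptors measured, 1 was called higher, 1 lower and 5 not. Lpar4, an LPA receptor known in mice for its part in blood vessel development, fell in cortex, to 7.53 ± 0.74 in cortex against 9.07 ± 0.43 in lung (SD, n = 4 each; difference -1.54, limma adjusted p = 0.0226). All 3 of its probe sets were lower in cortex. Its call was lost without cortex 18, cortex 72, lung 19 or lung 22, at -1.47 to -1.31. Gpr34, a lysophosphatidylserine receptor known from microglia, had 3.87, 5.98, 6.41 and 6.73 in cortex arrays 18, 19, 22 and 72, against a mean of 3.68 ± 0.15 in lung. The lung arrays and cortex 18 were dim, and cortex 18 lay within the lung range of 3.55 to 3.88. Gpr34 was called higher by 2.07 (limma adjusted p = 0.0336), a call lost without any of cortex 19, 22 and 72 or any lung array, at 1.74 to 2.14. The list of microglia and other white blood cells was also lowest in cortex 18, at 6.90, beside 8.74 to 9.20 in the other cortex arrays. Its part in the Gpr34 value was not tested.

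Of the 5 genes that break down S1P or remove its phosphate, 2 were called higher, 1 lower and 2 not. Plpp1, a phosphatase of the Plpp3 family, fell in cortex, to 10.82 ± 0.24 against 11.95 ± 0.18 in lung (difference -1.13, limma adjusted p = 0.00195). Plpp2, another member of that family, was called higher by 3.95 on its brighter probe set, at 10.81 ± 0.50 in cortex and 6.86 ± 0.25 in lung (limma adjusted p = 2.48e-05). A second Plpp2 probe set differed by -2.29, at 7.65 in cortex and 9.94 in lung, so the direction of Plpp2 is uncertain. Among 5 measured genes of LPA production, Pla2g4a, a phospholipase, was called lower by 1.47 in cortex, with 5.09 ± 0.22 in cortex and 6.56 ± 0.93 in lung (limma adjusted p = 0.0409). That call was lost without any cortex array, lung 19 or lung 22, at -1.56 to -1.36.

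The 5 carriage and export genes gave 1 call, Abcc1, an exporter of lipids and drugs, which stood at 8.21 ± 0.41 in cortex and 8.98 ± 0.25 in lung (difference -0.77, limma adjusted p = 0.0487). The call was lost without any array but cortex 72, at -0.85 to -0.62. Of 20 ceramide and sphingosine genes measured, 2 were called higher, 4 lower and 14 not. Smpd3, a neutral sphingomyelinase that releases ceramide, rose to 7.99 ± 0.72 in cortex, against 5.72 ± 0.32 in lung (difference 2.27, limma adjusted p = 0.00236). Its other probe sets differed by 0.91 and 0.012, and the mean of the 3 by 1.07 (limma adjusted p = 0.0066). Asah2, a neutral ceramidase that releases sphingosine, fell to 7.10 ± 0.70 in cortex, against 9.34 ± 0.19 in lung (difference -2.24, limma adjusted p = 0.00177), and by the mean of its 3 probe sets the difference was -1.46 (limma adjusted p = 0.00268).

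Of 14 genes measured for G proteins and downstream signalling, 1 was called higher, 1 lower and 12 not. Arhgef1 fell to 9.34 ± 0.35 in cortex, against 10.10 ± 0.08 in lung (difference -0.75, limma adjusted p = 0.0229), a call lost without cortex 72, lung 19 or lung 72, at -0.78 to -0.72. Gnaq, a G protein alpha subunit, was called higher by 0.53 (limma adjusted p = 0.0491), a call lost without any of the 8 arrays, at 0.43 to 0.60. Of 5 measured genes of receptor regulation 1 was called: Arrb1, an arrestin that binds activated receptors, fell to 9.55 ± 0.15 in cortex, against 11.17 ± 0.30 in lung (difference -1.62, limma adjusted p = 0.000375).

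**Figure D4:**
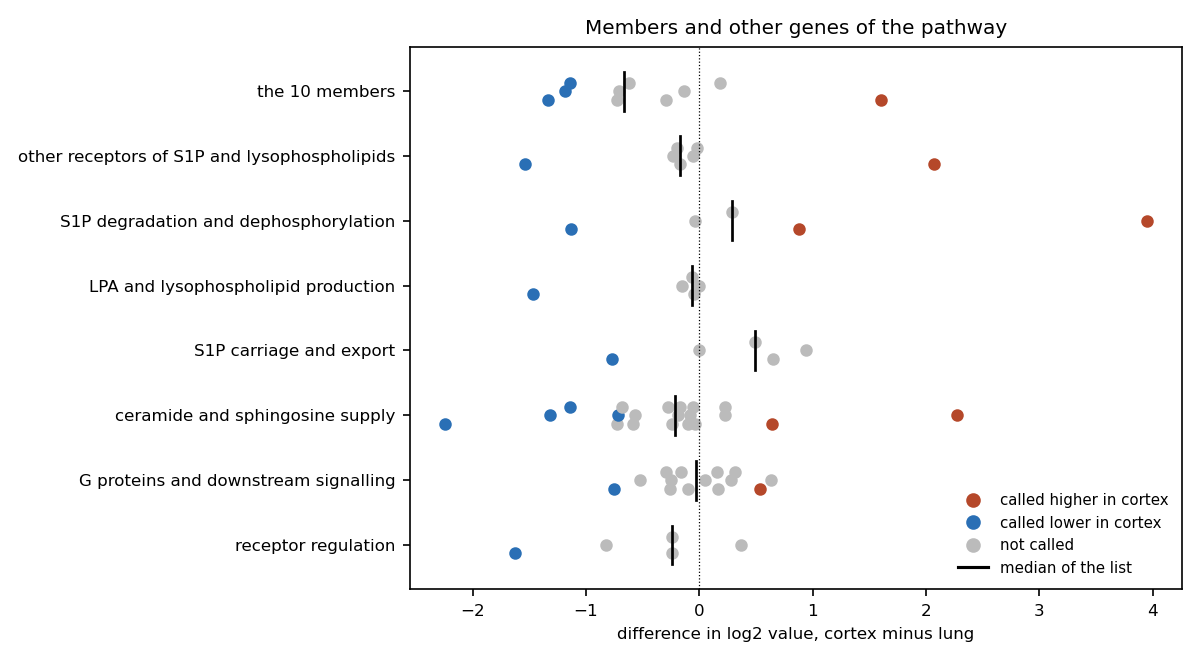
Each point is the difference of a pathway gene, cortex minus lung on the log2 scale, by list, with the 10 members in the top row and a black bar at each median; red is called higher in cortex, blue called lower and grey not called. Of the 61 other genes, 6 are called higher in cortex and 10 lower.

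The genes nearest to each member in pattern were found by the root mean square difference over the 8 arrays, after each gene was centred on its own mean. The nearest to S1pr1 were Rnf144b (0.092 log2 units), Dusp6 (0.164) and Man2a1 (0.166). The nearest to Spns2 were Pon2, Niban2 and Wdr1, from 0.104 to 0.132, and to Lpar6 they were Lratd2, Phldb2 and Cald1, from 0.0747 to 0.108. S1pr2 had Twistnb, Ifi47 and Fhod1 from 0.162 to 0.168, and S1pr4 had Tradd, Fbln1 and Galns from 0.129 to 0.167.

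For Lpar1 the nearest were Gli3 (0.177), Sfxn5 (0.188) and Samd4 (0.203). S1pr3 had Emilin3 at 0.410, Fxyd1 at 0.441 and Ccbe1 at 0.452. The measure is not scaled to a gene's own spread, so distances of different members are not comparable. The lung SD was 1.81 for S1pr3 and 0.16 for Sphk1. Sphk2 had Pwp2, Sdhaf2 and Mx2 from 0.096 to 0.100, Plpp3 had Rfk, Gsdme and Nck2 from 0.062 to 0.112, and Sphk1 had Spatc1l, 4921511C10Rik and Rag2 from 0.047 to 0.049. These are descriptions over 8 arrays, 4 of each tissue.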

How the data were processed

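Log2 expression values per probe set of an Affymetrix mouse genome array were deposited by the authors; per the submitters' processing notes they were made with RMA and affy; their versions are not given in the sources used here. RMA gives all arrays the same distribution of probe values, so a difference is relative to the other genes measured, and it compresses differences of dim probes. Per the labels' protocols, 15 to 30 ng of RNA was linearly amplified before hybridisation. Values ran from 2.82 to 15.22 over 45101 probe sets, and 0 columns belonged to no sample. No control probe set (64 in all) was tested. Of the others, 34945 named 1 gene and 932 several, by the platform annotation given for this work; 34754 were found by gene number in RefSeq's gene table. The probe set with the highest mean stood for each of 18193 genes.

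Cortex was compared with lung in R 4.3.3 by limma 3.58.1 (functions lmFit and eBayes, with a tissue term), two-sided, with Benjamini-Hochberg adjustment over all genes, on 4 pooled litters per tissue. The number of arrays limits the precision, and arrays have no read depth. The fit was tested on simulated data. The members and gene lists were chosen with earlier results of these data known. Besides the members, the text names the 2 called genes of each pathway list with the largest difference and the 3 genes nearest to each member in pattern. Alternatives were median centring, a shift to the same pan-endothelial mean, that mean as a covariate, leaving out the dimmest 25% of genes, array weights, a trended variance prior, all probe sets, the mean of a gene's probe sets, a replicate block, leaving out each array, and the BioB level as a covariate, added after seeing the data.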

Additional observations from a re-analysis of the deposited data

Results flagged for a closer look

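In 4 of the 42 groups of 4 arrays examined, over 21 genes, an end array stood apart by Dixon's criterion; chance gives about 1 in 20. Sphk1 was highest in lung 18, at 5.87, beside 5.55 in the nearest lung array. Plpp3 was lowest in cortex 19, at 9.92, beside 10.37 in the nearest cortex array. Plpp2 was lowest in lung 22, at 6.49, beside 6.94 in the nearest lung array. Gnaq was lowest in lung 72, at 10.27, beside 10.66 in the nearest lung array.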

How the results depend on the processing

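Leaving out each array in turn kept 1 member called higher and 3 called lower, all 4 at least 2-fold, and the adjusted p reached at most 0.0110 for Lpar1, 0.0290 for Lpar6, 0.0259 for S1pr2 and 0.0207 for S1pr4. The difference ranged from -1.22 to 0.036 for S1pr3 and from -0.079 to 0.31 for Plpp3. Pathway genes called numbered 2 to 5 higher and 6 to 9 lower. With arrays shifted to the same pan-endothelial mean, 2 members were called higher, 0 lower and 2 at least 2-fold, 6654 of all genes higher and 140 lower, and 18 pathway genes higher and 0 lower; at an unadjusted p under 0.05 (limma) 3 members were higher and 0 lower. Under this shift the difference was 0.68 for S1pr1, 0.11 for S1pr2, 0.57 for S1pr3, 0.15 for S1pr4, 1.16 for Sphk1, 1.0 for Sphk2, 0.59 for Spns2, 0.17 for Plpp1, 0.53 for Abcc1 and 0.54 for Arhgef1. With the pan-endothelial mean as a covariate, 0 members were called higher, 0 lower and 0 at least 2-fold, beside 818 and 309 of all genes and 6 pathway genes higher and 1 lower, and 2 members were higher and 3 lower at an unadjusted p under 0.05 (limma); S1pr1 was 0.69 and Spns2 0.13. Both settings adjust for a mean that itself differed between tissues. Under the shift limma gave every gene the same SE, 0.58, so its calls and p reflect only the size of a difference. Median centring called 1564 of all genes higher and 2410 lower, beside 1888 and 1403 without it, with Plpp3 at -0.026. Array weights called 2204 and 2233, with Plpp3 at -0.0092, and left 3 members at least 2-fold apart, with S1pr4 at -0.98. Testing all probe sets called 3278 higher and 2197 lower. The mean of a gene's probe sets left 2 members at least 2-fold apart, with S1pr2 at -0.83, Lpar1 at 0.80 and Sphk2 at 0.056. With the BioB level as a covariate 5 members were called lower and Plpp3 was -0.030, beside 1904 of all genes higher and 2055 lower. The cause of these changes was not tested. All 10 members kept their direction and call when the dimmest genes were left out and under a trended prior.

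The sample numbers are shared between tissues, but the labels do not say that equal numbers mark a litter. The correlation of same-numbered deviations was 0.307 for 18, 0.00886 for 19, -0.162 for 22 and 0.335 for 72, and 18 and 72 but not 19 and 22 correlated best with their own number. A fit with the replicate number as a block called 1801 of all genes higher and 1342 lower, and kept all 10 members' calls, with adjusted p of 0.011 for S1pr2, 0.021 for S1pr4, 0.021 for Lpar1 and 0.013 for Lpar6.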
